A study of Mus musculus with 31 samples.

Results

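The nuclear genes of oxidative phosphorylation were examined in mouse eyes with and without Ftx, an X-linked gene whose product is a long noncoding RNA. They were taken by name as genes starting with Nduf followed by a, b, c, s or v, with Cox4 to Cox8, with Atp5 or with Uqcr, and by a mean signal above 500 in the wild-type (WT) eyes. The rule gave 81 genes with 115 probes, out of 11435 genes with 14062 probes above the same limit. The limit removed 5 genes altogether. The signal is the brightness of a microarray spot after normalization, on a linear scale, and it compares samples for 1 probe, not probes with each other.

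The eyes came from C57BL/6N embryos at E13.5 that looked normal, and the pigmented epithelium had been taken off. There were 3 WT female eyes (numbered 1, 2 and 4), 3 WT male eyes, 3 Ftx-/Y male eyes and 11 Ftx-/- female eyes, all mutants from a conventional deletion made in the ES cell line EGR-G101, so every cell of the mutants lacks the gene. The deletion also abolishes the miRNAs 374 and 421, which lie in an Ftx intron, and WT eyes carry no targeted allele. The arrays used here are 2 for each Ftx-/- eye and 1 for each other eye, 31 for 20 eyes, and no source used here says whether the eyes came from different embryos or litters, so p-values measure only the spread between these eyes.

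Oxidative phosphorylation runs in the inner membrane of mitochondria. Complex I takes electrons from NADH, complex III passes them on to cytochrome c, and complex IV hands them to oxygen, while protons pumped along the way drive ATP synthase. Most of the subunits come from nuclear genes spread over the chromosomes, and a few from the mitochondrial genome. Several complex IV subunits have alternative forms made by separate genes, which are known for their use in muscle, testis, lung or cells short of oxygen. In the embryonic eye the lens, the neural retina and the vessels all need this machinery, in differing amounts.

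The array probes are 60 bases long, and their base composition moved with the results below, so the first 30 bases of 5 of them are shown, with G and C in capitals. They were chosen as low-GC and high-GC probes of members with large differences, plus the second Ndufb6 probe.
Cox6c (A_51_P343323): CGCtCCtGaaCtatGaaaCatGaatatGtG
Ndufb6 (A_52_P210338): GttCaCtattatGtCaaatatCatatGGCt
Ndufb6 (A_55_P1974467): CaGCaCaaGtatGttCCtaaaGtGCtGtat
Cox4i1 (A_51_P165435): aaGCGaatGCtGGaCatGaaGGCCaaCCCC
Cox6b2 (A_51_P300506): GGaaCtttCCCGGGCaaaatatGaCCttGC
The Cox6c probe and both Ndufb6 probes hold 35% G or C over their whole length, and the Cox4i1 and Cox6b2 probes 55%. The files place them (mm9) at chr15:35861751-35861810 on the minus strand (Cox6c), chr4:40219858-40224715 and chr4:40217720-40217779 on the minus strand (Ndufb6), chr8:123197924-123197983 on the plus strand (Cox4i1) and chr7:4703488-4703547 on the minus strand (Cox6b2). The wide span of the first Ndufb6 probe holds an intron.

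Many of these genes are known for promoters bound by NRF1, by ETS factors such as GABPA and by YY1. RefSeq promoter windows (GRCm38.p6, from 250 bases before to 50 after the start) were found for 68 of the 81 genes. Each member gene gave 1 window. The set of all windows, used beside it, covers 27025 genes, some with several windows, and was not limited by signal in the eye. On either strand, GCGCATGC (NRF1) stood in 10 of the 68 windows (14.7%) against 2.71% of all 32851 windows, CCGGAAG (ETS) in 14 (20.6%) against 8.86%, and AAGATGGCG (YY1) in 7 (10.3%) against 1.4%. Windows of 2 members are shown, each with 1 of 2 probes that kept its call in the main test and with the GC trend removed. At that probe Uqcr11 was lower in the Ftx-/- eyes and Ndufb6 was higher. Capitals mark matches to these motifs, which can stand on either strand.
Uqcr11 (chr10:80406772-80407071, minus strand): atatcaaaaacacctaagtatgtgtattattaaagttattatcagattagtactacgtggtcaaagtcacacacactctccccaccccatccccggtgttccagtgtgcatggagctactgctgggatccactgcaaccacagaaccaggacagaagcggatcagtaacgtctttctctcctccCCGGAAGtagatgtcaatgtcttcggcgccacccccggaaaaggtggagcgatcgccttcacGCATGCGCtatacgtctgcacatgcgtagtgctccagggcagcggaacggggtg
Ndufb6 (chr4:40279372-40279671, minus strand): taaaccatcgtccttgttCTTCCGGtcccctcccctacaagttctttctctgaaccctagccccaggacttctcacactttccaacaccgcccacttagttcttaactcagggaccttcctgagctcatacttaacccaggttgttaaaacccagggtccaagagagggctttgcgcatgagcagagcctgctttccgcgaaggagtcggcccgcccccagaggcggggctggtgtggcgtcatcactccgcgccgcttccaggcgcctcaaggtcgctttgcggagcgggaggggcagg
The Uqcr11 window holds 2 matches and the Ndufb6 window 1. A match to at least 1 of the 3 motifs was present in 5 of the 10 windows of genes with a higher probe, in 3 of the 9 windows of genes with a lower one and in 19 of the 49 windows of genes with no call.

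All 115 probes were well above background on every array and none was saturated. The strongest mean WT signals were those of Cox6a1 (176000) and of 2 Atp5g2 probes (124000 and 107000). The nearest probes above the limit were those of Ndufv3 (A_51_P140211, mean WT signal 661), Cox7a1 (967) and Cox4i2 (1180), and the nearest below were a second Ndufb11 probe (382), Cox6a2 (331) and Atp5s (130). Cox7b2 and Cox8b were not well above background on any array, and Cox8c on 1 WT male and 1 Ftx-/- array. Of the 81 genes, Cox4nb (now Emc8) and Atp5sl (now Dmac2) match by an older name and encode no subunit of the complexes. The probe for Ftx, listed as B230206F22Rik, had mean signals of 101 in WT females, 106 in WT males, 16.5 in Ftx-/Y males and 21.7 in Ftx-/- females, and was well above background on 9 of the 22 Ftx-/- arrays and on none of the 3 Ftx-/Y arrays. A second probe of it (A_55_P2175007) read 40.5, 18.9, 13.7 and 9.78 in the same order, and cleared the background on 2 of the 3 arrays of WT females and on none of WT males.

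The slides bear on every comparison. Slide 1 held every WT eye together with Ftx-/Y eye 1, and it was scanned apart from the other slides. The remaining Ftx-/Y eyes lay on slide 2 beside the Ftx-/- eyes numbered 1 to 3, slide 3 carried numbers 4 to 7, and slide 4 carried numbers 8 to 11. Since no slide holds WT and Ftx-/- female eyes, slide and genotype in females cannot be told apart except through the 3 Ftx-/Y eyes. Median array intensities ran from 34.2 to 75. The 2 arrays of an Ftx-/- eye differed over the members by a median of 0.0366 to 0.104 on the log2 scale, and the median SD between eyes was 0.0712 in WT females, 0.0888 in WT males, 0.08 in Ftx-/Y males and 0.123 in Ftx-/- females.

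In the Ftx-/- females the genes of oxidative phosphorylation did not move together. Compared with WT females, 14 probes were higher and 14 lower at an adjusted p under 0.05 (limma with Benjamini-Hochberg adjustment over all 14062 probes), that is 28 of 115 probes (24.3%) of 24 genes. The background was 35.1% of all probes called, 17.3% of them higher and 17.7% lower. The median log2 fold change was -0.01 over the members and -0.01 over all probes, and the members ran from -0.52 to 0.55. On the deposited table without normalization, which puts the median of all probes at 0.251, 15 probes were higher and 0 lower. With slide as a term in the fit, 1 member probe was called (Ndufa7, where Ftx-/Y eye 1 stands apart), as were 0.0782% of all probes. In that fit the female difference uses only the Ftx-/- eyes of slide 2 and is joined to slide 1 through Ftx-/Y eye 1. Without WT female eye 2 there were 17 calls, a count given without the share of all probes in that setting. Of the 28 called probes, 13 kept their call whichever of the 3 WT female eyes was left out, and 15 lost it for at least 1 of them. In 7 of these 15 it was lost for each of the 3 eyes, namely Ndufb11, Ndufab1, Ndufaf1, Uqcrh (A_55_P1965427), Cox7a1, Cox7a2 and Atp5sl. In a count that needs no fit, 15 probes (13%) had Ftx-/- and WT female eyes that did not overlap, 5 with the mutant above and 10 below, against 21.6% of all probes.

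**Figure D1:**
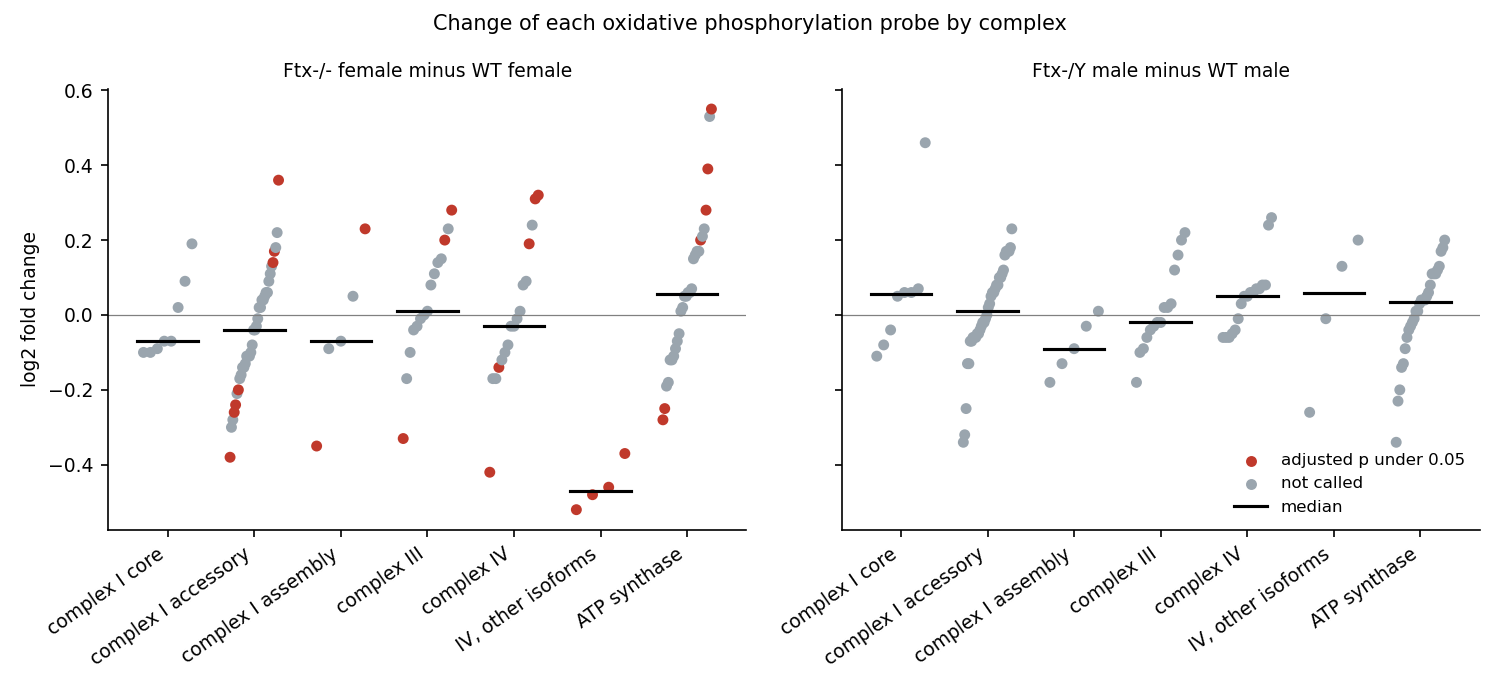
Log2 fold change of each member probe in the 7 groups of genes, for Ftx-/- minus WT females (left) and Ftx-/Y minus WT males (right). Each point is 1 probe, red where the adjusted p was under 0.05, and bars mark group medians. Most groups lie around 0 with calls on both sides in females, the 4 other isoforms of complex IV all lie below -0.3 in females, and no point is red in males.

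Complex I has a catalytic core, a shell of accessory subunits and assembly factors that leave the finished enzyme. Of the 8 probes of core genes, 0 were called by limma in females, and 0 passed an unadjusted p under 0.05, with a median of -0.067. The smallest p in the core belonged to Ndufs3 (log2 fold change -0.1, SE 0.0546, adjusted p = 0.179), whose Ftx-/- eyes spanned 20500 to 24800 and whose WT female eyes spanned 23700 to 25000. Among 36 accessory probes, 3 rose and 4 fell.

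Ndufb6, an accessory subunit of the membrane arm, rose most in complex I. Its probe A_52_P210338 gave 6890, 8180 and 8070 in the WT female eyes and from 8660 to 10700 (median 10300) in the Ftx-/- eyes. The groups did not overlap (log2 fold change 0.36, SE 0.0707, adjusted p = 0.000947), but the Ftx-/Y eyes, at 10400, 9810 and 9150, lay in the same range and above the WT males (8600 to 8740). The second Ndufb6 probe, with the same GC content, was not called (log2 fold change 0.04).

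Ndufa3, another accessory subunit, showed the largest fall in complex I. Its WT female eyes had 42000, 41200 and 36400 and its Ftx-/- eyes from 26200 to 37600 (median 31500). The groups overlapped by the highest mutant eye (log2 fold change -0.38, SE 0.105, adjusted p = 0.00913), and all 11 Ftx-/- eyes were below the WT female mean. Both probes of Ndufv3, an accessory subunit of the NADH-binding arm, fell (-0.26 and -0.24), as did Ndufb9 (-0.2). At A_51_P140211 the WT female eyes read 939, 666 and 673, and without eye 1 the value was -0.07 (adjusted p = 0.534), while with the GC trend taken out it was 0.06.

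Of the 5 probes for assembly factors of complex I, Ndufaf3 fell and Ndufaf1 rose. Ndufaf3 read 1730, 1640 and 1490 in WT females and 1110 to 1490 (median 1280) in the Ftx-/- eyes (log2 fold change -0.35, SE 0.076, adjusted p = 0.00204). Ndufaf1 read 2040, 2240 and 2330 against 2190 to 3000 (median 2430), with groups that overlapped (log2 fold change 0.23, adjusted p = 0.0485), and its call was lost without any 1 of the WT female eyes and with the GC trend taken out (0.05).

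Complex III has a few catalytic subunits and several small ones, and of its 15 probes 2 rose and 1 fell. The fall was that of Uqcr11, a small subunit, with 43000, 47300 and 46100 in WT females and 33000 to 40600 (median 36200) in Ftx-/- females. No Ftx-/- eye reached a WT female eye (log2 fold change -0.33, SE 0.0637, adjusted p = 0.00083). The 3 Ftx-/Y eyes, at 39300, 39700 and 39100, were between the WT male eyes, at 38200 to 44500. These values belong to probe A_55_P1961983, and the second Uqcr11 probe, A_55_P1979743, was not called by limma (log2 fold change -0.1, adjusted p = 0.274). Both rises were probes of Uqcrh, the hinge protein of the complex (0.2 and 0.28), and the larger rise, at A_55_P2052470, had no overlap, with 22100, 25900 and 27400 in WT females and 28300 to 32000 (median 30400) in the mutants. The files place that probe on chromosome 2, while the gene lies on chromosome 4.

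In complex IV the 17 probes for the common subunits split into 3 rises and 2 falls, with a median of -0.026. Cox4i1 encodes the form of subunit 4 used in most tissues, and its eyes had 78400, 82900 and 75700 in WT females against 53200 to 70800 (median 58100) in Ftx-/- females. The groups did not overlap (log2 fold change -0.42, SE 0.099, adjusted p = 0.00348). One WT male eye (58400) and Ftx-/Y eye 1 (60400) were also in the mutant range. Cox6c, a small nuclear subunit, went the other way, from 31000, 36800 and 36600 to 37500 to 47300 (median 43000), again without overlap (log2 fold change 0.32, SE 0.0695, adjusted p = 0.00199).

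The 4 alternative complex IV forms above the limit fell in the Ftx-/- females, with a median log2 fold change of -0.474. They were Cox6b2, a form of subunit 6b known from testis, Ndufa4l2 and Cox4i2, both known to be induced by low oxygen, and Cox7a1, the heart and muscle form of subunit 7a. The other 4 forms on the list (Cox6a2, Cox7b2, Cox8b and Cox8c) were under the limit and not among the 14062 probes. Cox6b2 gave 1330, 1480 and 1380 in WT females and 809 to 1220 (median 974) in the mutants (log2 fold change -0.52, SE 0.114, adjusted p = 0.0019). For Cox6b2 all 11 mutant eyes were below every WT female eye, and the Ftx-/Y eyes, at 960, 1070 and 1090, lay in the mutant female range, as did WT male eye 3 (963).

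Cox4i2 is the alternative form of subunit 4. It read 1220, 1360 and 1120 in the WT female eyes, 1270, 1150 and 977 in the WT males, 1120, 1260 and 1320 in the Ftx-/Y males and 757 to 1140 (median 884) in the Ftx-/- females. Only the highest Ftx-/- eye reached the WT female range (log2 fold change -0.46, SE 0.107, adjusted p = 0.00291).

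Ndufa4l2 is the relative of Ndufa4, a subunit first counted to complex I and now to complex IV. It read 3690, 4590 and 3880 in WT females, 4400, 3890 and 3410 in WT males, 4240, 4820 and 4300 in Ftx-/Y males and 2250 to 4090 (median 3000) in Ftx-/- females (log2 fold change -0.48, SE 0.14, adjusted p = 0.0118). Apart from Ftx-/- eye 4, every mutant female eye was below all WT female eyes. Without WT female eye 2 the adjusted p of Ndufa4l2 was 0.0889, with a log2 fold change of -0.39.

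Cox7a1 had 924, 1160 and 950 in WT females and 620 to 973 (median 803) in Ftx-/- females (log2 fold change -0.37, SE 0.138, adjusted p = 0.0446). Its call was lost without WT female eye 1, 2 or 4 (adjusted p = 0.0685, 0.239 and 0.0751). With slide as a term in the fit, none of the 4 forms was called, at -0.6 for Cox6b2 (adjusted p = 0.252), -0.53 for Cox4i2 (0.253), -0.43 for Ndufa4l2 (0.477) and -0.39 for Cox7a1 (0.37). These values do not use the eyes of slides 3 and 4, which hold no other group, and reach the WT females only through Ftx-/Y eye 1. For Cox6b2 the Ftx-/- minus Ftx-/Y difference within slide 2 was -0.07. The fit therefore cannot tell whether the female differences hold apart from slide.

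Of the common forms, Ndufa4 rose (log2 fold change 0.31, SE 0.0729, adjusted p = 0.00313) and so did Cox7a2, the widely used form of subunit 7a (0.19, adjusted p = 0.0421), whose call was lost without any 1 of the WT female eyes (adjusted p = 0.084, 0.127 and 0.124) and which gave 0.01 with the GC trend taken out. The differences of the forms within a pair were not tested against each other. Cox6a1 gave -0.03 (adjusted p = 0.803), and of the Cox8a probes A_51_P517495 fell (-0.14) and A_55_P2018747 was not called (-0.17).

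**Figure D2:**
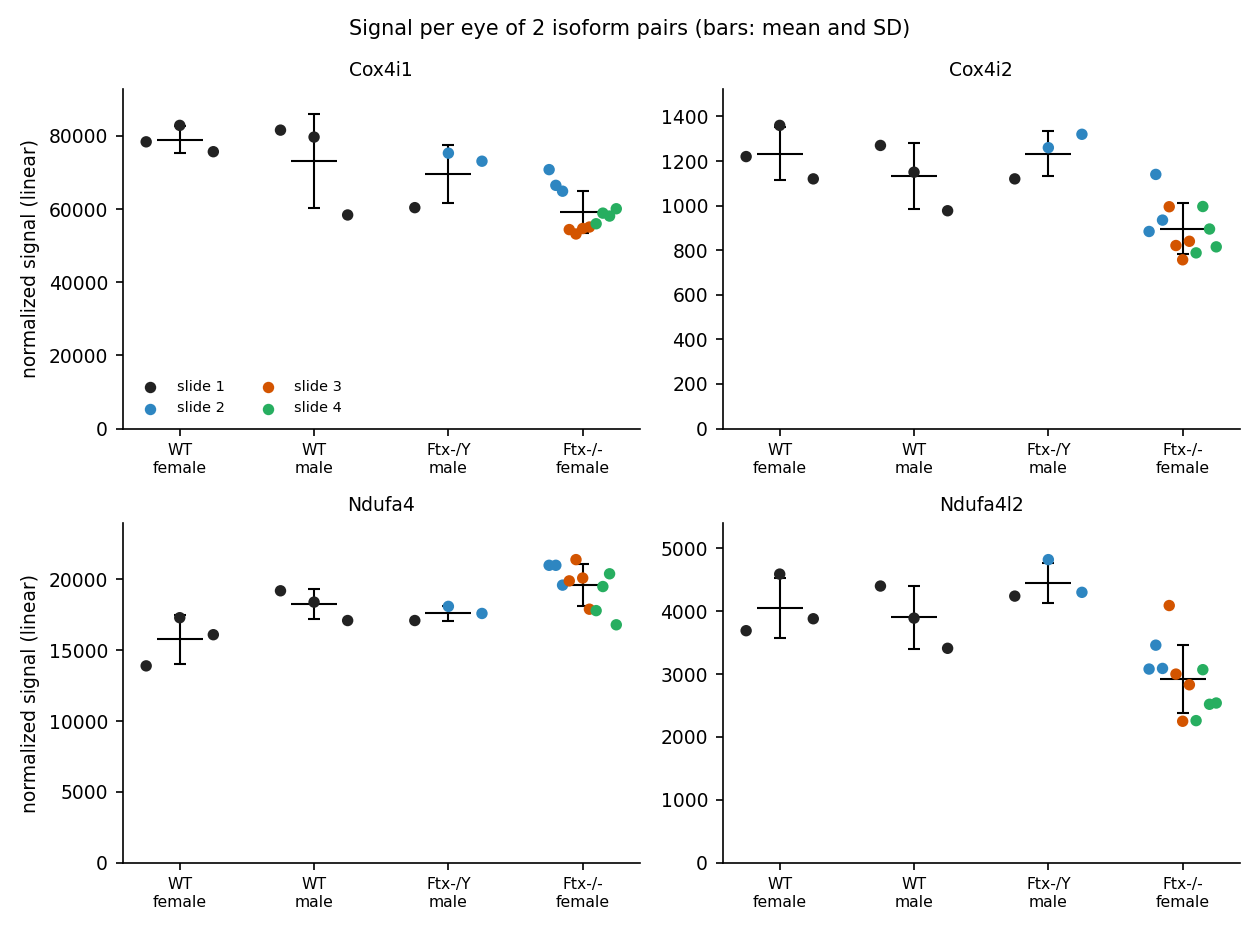
Normalized signal of Cox4i1, Cox4i2, Ndufa4 and Ndufa4l2 in each eye, on linear axes that start at 0 and differ between panels. Points are eyes coloured by slide, and bars give the mean and SD of each group. Cox4i2 and Ndufa4l2 are lower in the Ftx-/- females than in the other 3 groups with a few eyes overlapping, Ndufa4 has its highest group mean there, and the Ftx-/- eyes of slide 2 lie above those of slides 3 and 4 for Cox4i1.

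ATP synthase has a catalytic head, a stalk and a membrane ring. Of its 28 probes 4 rose and 2 fell, and its median was 0.053. Atp5l, the small membrane subunit g, accounted for 3 of the rises among its 6 probes, and all 6 had positive log2 fold changes (0.15 to 0.55). At A_55_P2026669 the WT female eyes gave 12600, 14500 and 14700 and the Ftx-/- eyes 15000 to 26200 (median 19700), without overlap (log2 fold change 0.55, SE 0.134, adjusted p = 0.0043). The Ftx-/Y eyes, at 20600, 19800 and 18700, were above the WT males (16400 to 18500). The fourth rise was that of Atp5c1, the central stalk subunit gamma, at A_55_P2150908 (0.2, adjusted p = 0.0139).

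The falls in ATP synthase were those of Atp5d, subunit delta of the stalk, and Atp5k, subunit e of the membrane part. Atp5d went from 16200, 15600 and 16500 to 11200 to 15500 (median 13200) with no overlap (log2 fold change -0.28, SE 0.0776, adjusted p = 0.0103). For Atp5k, 1 of 3 probes fell (-0.25) and the other two were not called. Atp5g1, Atp5g2 and Atp5g3, 3 genes for the same mature ring subunit c, had no call, with log2 fold changes from -0.19 to 0.07 over 5 probes.

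The direction of the female differences followed the base composition of the probe. Across the 115 members the log2 fold change and the GC content had r = -0.64, and across all probes r = -0.49 (probes are not independent and share the same arrays). Among the 30 member probes with 25% to 36.7% GC, 10 were higher and 0 lower, with a median of 0.15. Of all 4493 probes up to 36.7% GC, 1592 were higher and 166 lower, with a median of 0.16. Among the 23 member probes with 48.3% to 55% GC, 0 were higher and 8 lower, with a median of -0.17. Of all 2678 probes from 48.3% GC, 35 were higher and 1260 lower, with a median of -0.27. In males the corresponding medians of the member probes were 0.07 and 0.01.

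In single eyes the same contrast differed by slide. The gap between low-GC and high-GC members, against the mean of WT eyes, was -0.15 to 0.18 on slide 1, 0.05 to 0.09 on slide 2, 0.5 to 0.52 on slide 3 and 0.19 to 0.23 on slide 4. With the 4 eyes of slide 3 set apart, the other 7 Ftx-/- eyes gave 23 calls (11 higher, 12 lower, 33.8% of all probes), and the slide 3 eyes alone gave 60 (49.5%). All 28 called probes had the same direction on slides 2, 3 and 4, with a median size of 0.23, 0.37 and 0.26. They were called on these same eyes against the same WT female eyes, which favours a shared direction. No share over all probes is given here. The part of GC content and slide in the result was not tested.

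**Figure D3:**
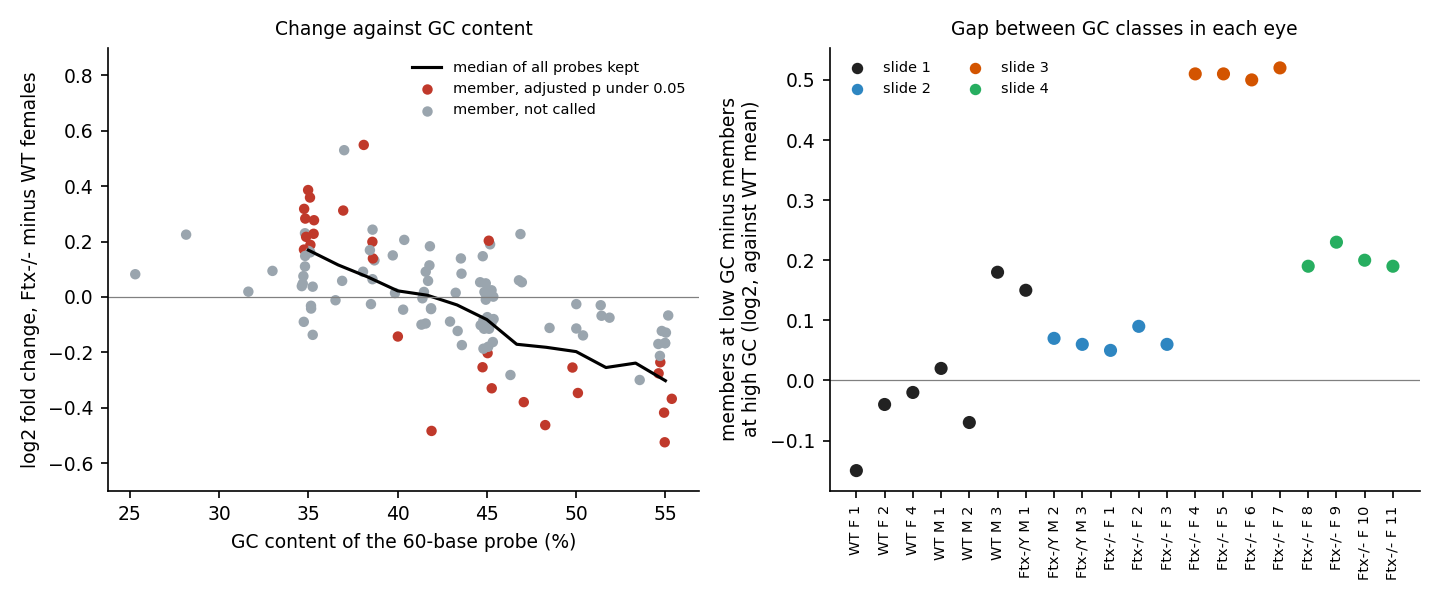
Left, log2 fold change of each member probe (Ftx-/- minus WT females) against the GC content of the probe in percent, red where called, with the median of all probes as a line. Right, the log2 gap between low-GC and high-GC members in each eye, coloured by slide. Rises lie mostly at low GC and falls at high GC, and the 4 eyes of slide 3 stand at 0.5 to 0.52, above all others.

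After the trend with GC content was taken out of each eye, an alternative chosen with the data in view, 15 member probes were called (7 higher, 8 lower) against 22.9% of all probes. Of these, 8 were among the 28 and kept their direction, and 7 were called only there. The 7 were Atp5b (-0.24), Cox7c (-0.34) and Ndufs5 (-0.32), which fell, and Ndufb8 (0.17), Ndufs7 (0.16), Ndufs8 (0.23) and Atp5g2 (0.17), which rose. Ndufs7 and Ndufs8 belong to the complex I core, which had no call in the main fit. The 8 were Cox4i2 (-0.31), Ndufa4l2 (-0.51), Cox8a (-0.21), Ndufa3 (-0.27) and Uqcr11 (-0.26), which fell, and Ndufb6 (0.18), Atp5c1 (0.27) and Atp5l (0.45), which rose. Cox6b2 (-0.23, adjusted p = 0.0833), Cox4i1 (-0.12, adjusted p = 0.306), Cox7a1 (-0.07, adjusted p = 0.702) and Cox6c (0.14, adjusted p = 0.0976) lost their calls.

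In males the deletion gave no called member. Of 115 probes, 0 passed limma's adjusted threshold between Ftx-/Y and WT males, against 0.0213% of all probes, 9 (7.83%) passed an unadjusted p under 0.05 against 11.8% of all probes, and the methods' t-test (unequal variance, with Benjamini-Hochberg adjustment) called 0. The median log2 fold change was 0.024. Ndufa7 gave the lowest value, together with an ATP synthase probe (-0.34). For Ndufa7, Ftx-/Y eye 1 read 21300 and the other eyes of all groups from 32800 to 44300.

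**Figure D4:**
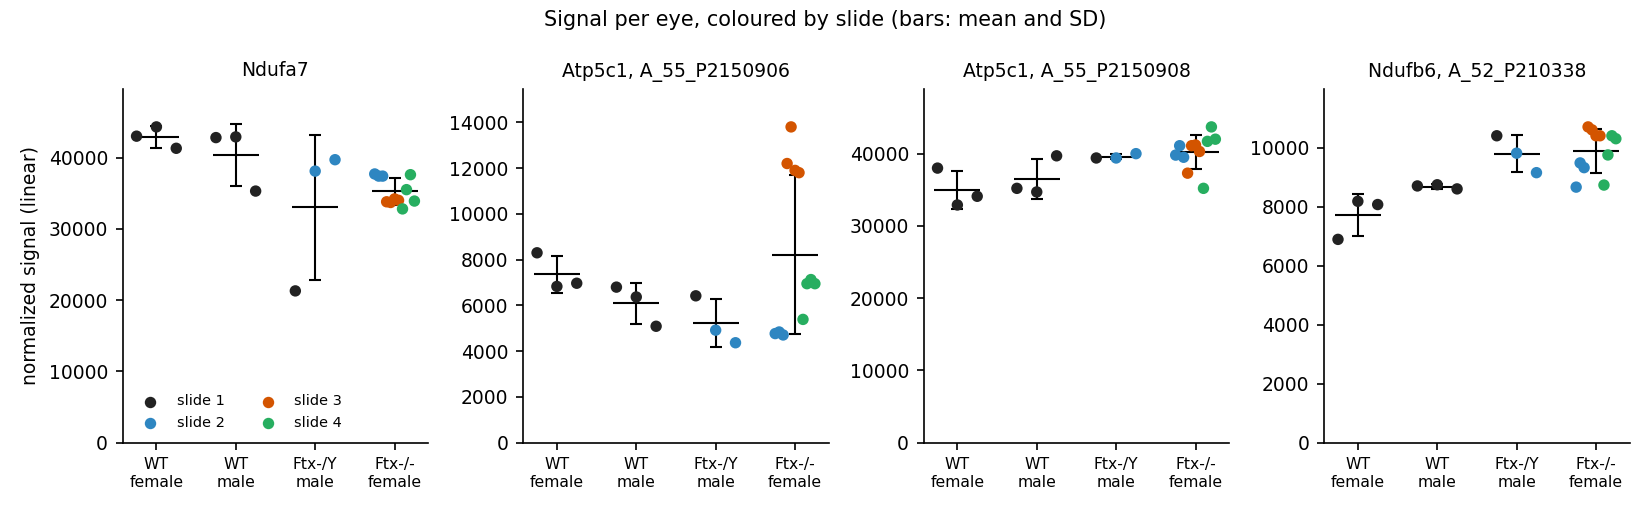
Normalized signal per eye for Ndufa7, both probes of Atp5c1 and Ndufb6 (A_52_P210338), on linear axes that start at 0, with points coloured by slide and bars for mean and SD. For Ndufa7 a single Ftx-/Y eye lies at 21300, and for Atp5c1 at A_55_P2150906 the eyes of slide 3 lie at 11800 to 13800 while the second Atp5c1 probe shows no such step.

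Between WT females and WT males 0 member probes were called by limma (0.107% of all probes), 3 (2.61%) passed an unadjusted p under 0.05 against 10.2% of all probes, the median was 0.008, and the methods' t-test with adjustment called 0. Of the members 3 genes are X-linked. Ndufb11 rose slightly in Ftx-/- females (log2 fold change 0.14, SE 0.0484, adjusted p = 0.0319), from 39300, 40200 and 39000 to 40200 to 46800 (median 43600). Ndufa1 (0.06, adjusted p = 0.708) and Cox7b (-0.01, adjusted p = 0.917) were not called. None of the 3 was called between WT females and WT males, where Ndufb11 gave -0.07, Ndufa1 -0.06 and Cox7b -0.1.

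The probe positions held a few oddities among the members, since 7 probes of 6 genes are placed by the files on another chromosome than the gene. An Atp5l probe (A_55_P2002602) placed on the X chromosome gave 0.17 (adjusted p = 0.0567) in Ftx-/- females. A pair of Atp5k probes placed on the Y chromosome had mean signals of 32800 and 30600 in WT females and 35700 and 28300 in WT males.

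Directly between the mutants, 2 member probes were lower in Ftx-/- females than in Ftx-/Y males and 0 were higher (1.74% against 2.01% of all probes). They were Ndufa4l2 (log2 fold change -0.62, SE 0.14, adjusted p = 0.0273) and Cox4i2 (-0.47, SE 0.107, adjusted p = 0.0305), each lower than the mean of the Ftx-/Y eyes in 11 of 11 Ftx-/- eyes. For Ndufa4l2 the groups did not overlap. With the GC trend taken out both calls stayed (2.13% of all probes). By the methods' t-test with Benjamini-Hochberg adjustment Ndufa4l2 kept its call (adjusted p = 0.0247) and Cox4i2 lost it (adjusted p = 0.0956). Within slide 2, the only slide with both groups, the values were -0.51 and -0.4 and neither was called. Leaving out Ftx-/Y eye 1, 2 or 3 ended both calls, with adjusted p from 0.0845 to 0.242 for Ndufa4l2 and from 0.0715 to 0.227 for Cox4i2, and leaving out Ftx-/- eye 11 ended that of Cox4i2. This comparison shares the Ftx-/- eyes with the one against WT females.

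Whether the deletion acted differently in the 2 sexes was tested as the female change minus the male change. Of the members 0 were called by limma, as were 0% of all probes, and 15 (13%) passed an unadjusted p under 0.05 against 13.8% of all probes. The largest difference was that of Ndufa4l2 (-0.68, SE 0.224, adjusted p = 0.203), and Cox4i2 gave -0.59 (SE 0.171, adjusted p = 0.177).

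Cell type markers were also read between Ftx-/- and WT females, where 35.1% of all probes were called (17.3% higher and 17.7% lower). Of 13 probes of lens genes such as the crystallins, 11 fell in the Ftx-/- females (median log2 fold change -0.705). The summed signal of the 13 was 1170000 to 1320000 in WT females and 1180000 to 1210000 in WT males. It was 951000 to 1210000 in Ftx-/- females and 1160000 to 1270000 in Ftx-/Y males. Mesenchyme markers above the limit (3 of 7 probes) rose in the Ftx-/- females. The sum over all 7 mesenchyme probes was 3540 to 5050 in WT females and 4990 to 12100 in WT males. It was 5500 to 44900 in Ftx-/- females and 4480 to 8820 in Ftx-/Y males. In RNA from mixed cells of an eye, fewer cells of a type and less RNA per cell cannot be told apart. Of 7 endothelium probes 4 were kept, and 1 of these was lower in the Ftx-/- females. The sum over all 7 was 11200 to 12400 in WT females and 9680 to 13700 in WT males. It was 8090 to 11100 in Ftx-/- females and 8430 to 10600 in Ftx-/Y males. None of the 14 probes of skeletal muscle markers reached the limit.

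Among the remaining markers, sums also took in probes under the limit. Of 6 erythroid probes above the limit 3 were higher in Ftx-/- females. The sum over all 11 was 266000 to 274000 in WT females and 228000 to 295000 in WT males. It was 253000 to 503000 in Ftx-/- females and 333000 to 715000 in Ftx-/Y males. Of 5 pigment cell probes above the limit 1 was higher. The sum over all 11 was 6590 to 9520 in WT females and 10600 to 15700 in WT males. It was 4290 to 42700 in Ftx-/- females and 6540 to 9490 in Ftx-/Y males. Retinal neuron probes (2 higher and 2 lower of 8) summed to 140000 to 178000 in WT and 125000 to 162000 in Ftx-/- females. Of 9 retinal progenitor probes above the limit 2 were higher. The sum over all 11 was 157000 to 169000 in WT and 148000 to 183000 in Ftx-/- females. Of 7 pericyte probes, a list added after values were seen, 1 passed the limit (Notch3), and it fell in the Ftx-/- females (-0.246). The sum over all 7 was 4940 to 5230 in WT females and 3630 to 4600 in WT males. It was 4070 to 4280 in Ftx-/Y males and 3910 to 5550 in Ftx-/- females. Hypoxia-responsive genes, also added after values were seen, had 11 probes, of which 2 rose and 2 fell in Ftx-/- against WT females (median 0.144), 1 rose in Ftx-/Y against WT males (median 0.258, 11 of 11 positive) and 1 was lower in Ftx-/- females than in Ftx-/Y males (median -0.244, 1 of 11 positive). Beside these counts, 35.1% of all probes were called in females (17.3% higher and 17.7% lower), 0.0213% in males and 2.01% between the mutants. The part of these cell types and gene lists in the differences of Cox4i2, Ndufa4l2 and the other members was not tested.

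Other genes of mitochondrial energy metabolism were read in the same way. Complex II, which feeds electrons from succinate, and cytochrome c had 9 probes, of which 4 rose and 1 fell in Ftx-/- females. The flavoprotein subunit Sdha rose most (log2 fold change 0.39, SE 0.0554, adjusted p = 9.3e-05), and the 2 probes of Sdhc, a membrane anchor, went opposite ways, 0.38 at the one with 25% GC and -0.3 at the one with 55% GC. Of the 13 genes of the mitochondrial genome measured, ND5, a subunit of complex I, fell (-0.57, SE 0.215, adjusted p = 0.0464) and 12 were not called, with a median over the 13 of -0.134. The assembly factors of complexes II to V had 5 rises and 4 falls among 18 probes. Of all probes in females 35.1% were called, 17.3% higher and 17.7% lower.

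Of the 18 probes of regulators, 6 rose and 0 fell. They were Lrpprc, which stabilizes mitochondrial mRNAs (log2 fold change 0.7, adjusted p = 9.3e-05), Polg2 of the mitochondrial DNA polymerase (0.48), the transcription factors Nrf1 (0.41) and Gabpa (0.33), and Tfb1m (0.25) and Tfam (0.2), which serve the mitochondrial genome. None of these was called in males, where 0.0213% of all probes were. In females 35.1% of all probes were called, 17.3% higher and 17.7% lower. The probes of these 6 had 26.7% to 45% GC. In the citric acid cycle 6 of 20 probes rose and 3 fell.

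Glycolysis, the other route to ATP, had 31 probes with 3 rises and 1 fall in females and 1 rise in males. The rises in females were Hk2 (log2 fold change 0.61, adjusted p = 0.000738), Pfkfb3 (0.52, adjusted p = 0.000688) and Pgk1 (0.29, adjusted p = 0.0164), and that in males was Pfkfb3 (0.75, adjusted p = 0.0374), which makes an activator of the pathway. Of all probes 35.1% were called in females and 0.0213% in males. Other large complexes served as a scale. In females 37 of 94 probes of the mitochondrial ribosome (15 higher, 22 lower), 31 of 192 of the cytosolic ribosome (19 higher, 12 lower) and 11 of 44 of the proteasome (5 higher, 6 lower) were called, with medians of -0.01, 0.029 and -0.019.

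Of the 81 genes, 26 had several probes. A call was found for 9 of them, at all probes for Ndufv3 and Uqcrh and at some probes for 7, and in no gene were probes called in opposite directions. The widest span of log2 fold changes within a gene was that of Atp5l (0.15 to 0.55). The Atp5c1 probes differed in how the slides lay, since A_55_P2150906 (35% GC) gave 11800 to 13800 in the 4 eyes of slide 3 and 4370 to 8300 in all other eyes, WT and mutant. Its female log2 fold change was 0.05 (SE 0.301, adjusted p = 0.916), while A_55_P2150908 (45% GC) stayed between 32900 and 43700 in all eyes. An Atp5l probe, A_55_P2067682, behaved likewise, with 12300 to 12900 on slide 3 and 4950 to 7780 elsewhere.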

How the data were processed

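RNA of 20 eyes was measured on 31 Agilent arrays with a single dye (Cy3). The authors deposited the intensity of each spot, background-subtracted by Feature Extraction 11.0.1.1 (file headers), and not normalized between arrays. The deposited series matrix holds the same intensities to within 1 percent. Intensities were normalized here by qspline (R 4.3.3, written out), as in the study's methods. Flagged spots (120 non-uniform, 5639 apart from their copies) and 3671 control spots were left out, log2 values were averaged over the spots of a probe and then over the arrays of each eye, and the mean WT signal had to exceed 500. Groups were compared in 1 fit over all eyes with limma 3.58.1 (trend on the mean, two-sided, Benjamini-Hochberg over 14062 probes), and files were read with the data.table package, version 1.17.8. The code of the fit was also run on simulated data with independent noise. Those data had no slide effect and no GC trend, so that run does not bear on either. A member probe lacking 1 WT male eye was fitted without it. All 115 member probes matched RefSeq by accession or symbol.

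The members, gene lists and markers were chosen with earlier results of these data known. The text names X-linked members, the largest rise and fall in each complex (or the smallest p), calls of other comparisons, the strongest probes and those nearest the limit, isoform pairs and up to 5 called probes of complex II and of the regulators, and other probes that stood out were chosen after their values were seen. Alternatives were other normalizations, filters, array weights, slide or replicate blocks, the methods' t-test (unequal variance), fold limits of 1.2 and 0.8, left-out eyes, single slides and, added with the data in view like the single slides, removal of a spline trend (4 degrees of freedom) with GC content. The number of eyes limits the precision. A result of the male comparison is not reported here.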

Additional observations from a re-analysis of the deposited data

Results flagged for a closer look

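The search covered 49 probes, the named ones and the members called in females, a choice that favours female eyes on 1 side. In 3 of them every Ftx-/- eye differed from the WT female mean one way and every Ftx-/Y eye from the WT male mean the other way. The test of the difference did not pass the adjusted threshold in limma. No share over all probes is given here. Tfb1m (A_52_P345247), a mitochondrial rRNA methyltransferase, differed by 0.39 between the sexes on the log2 scale (female change 0.25, male change -0.13, unadjusted p = 0.000525, adjusted p = 0.153). Ndufa4 differed by 0.36 (0.31 and -0.05, unadjusted p = 0.00621, adjusted p = 0.198), where the Ftx-/Y eyes lay at -0.09 to -0.01 from the WT male mean. Ndufv3 at A_51_P140211 differed by -0.4 (-0.24 and 0.17, unadjusted p = 0.0101, adjusted p = 0.234), and 1 WT female eye stood at 939 while the WT eyes of both sexes otherwise lay at 527 to 673.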

How the results depend on the processing

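Over 46 alternatives, 51 single-probe results gave 2078 values, of which 1727 kept their side of the threshold, 326 lost and 15 gained a call and 10 turned; 27 sign changes of 10 uncalled results are counted with the first. The 28 female calls became 15 on the series table, 43 with array weights, 1 with slide as a block (Ndufa7, -1.06, which rests on Ftx-/Y eye 1), 15 with slide as a random block, 14 by the methods' t-test with fold limits, 15 with fold limits and 15 with the GC trend taken out, and slide 3 alone gave 60. Leaving out 1 eye gave 17 to 30, the 17 without WT female eye 2. The replicate numbers did not pair the eyes (correlations of same-numbered eyes -0.22 to 0.13 in females), and a replicate block gave 10 calls in females and 0 between the mutants. For males the 0 became 1 without a minimum (Cox8b, not well above background on any array), 28 with array weights, 1 with slide as a block (Ndufa7) and 2 with fold limits, and left-out eyes gave 0 to 1 (Ndufb9 without WT male eye 3). WT females against WT males gave 1 with fold limits and 0 with any eye left out. Between the mutants the 2 calls became 0 on the series table, with the groups alone, with a slide block of either kind, within slide 2 and with slide 2 eyes alone, 1 with slide 4 alone or slides 2 and 4, 4 or 5 by the methods' t-test with adjustment or fold limits, 40 with array weights and 50 with slide 3 alone, and 0 to 3 with an eye left out (0 without any of the Ftx-/Y eyes, 1 without Ftx-/- eye 11). The 4 calls between the mutants by the t-test with adjustment held Ndufa4l2 but not Cox4i2 (adjusted p = 0.0956). The sex difference gave 5 with array weights, 7 with fold limits, 26 with slide 3 alone and 0 with any eye left out. Medians on the series table were 0.24 in females, -0.098 in males and -0.142 between WT sexes, where all probes stood at 0.251, -0.091 and -0.159, and they ranged from -0.021 to 0.006, -0.009 to 0.041 and -0.024 to 0.032 with an eye left out. Falls that came to 0 or above were Atp5d (0), Ndufv3 (0.03), Cox8a (0), Ndufb9 (0.04) and Atp5k (0) on the series table, and Atp5d (0.02) and Ndufv3 (0.06) with the GC trend out, where Sdhc gave -0.05 and 0 and Ndufab1 -0.01. For these changes the cause was not tested. Most member counts here stand without the share of all probes called in the same setting, so they do not set the members apart from the array.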
